A study of Mus musculus with 35 samples.

Results

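Mouse reprogramming cells infected with the factor sets that the labels call OB and ODR were compared at day 14, in 3 OB libraries and 3 ODR libraries of the 35 libraries in the table. The libraries were chosen by their titles, as the day 14 OB and ODR samples of the culture without BMP. All 6 cultures had gone through 2 rounds of infection with the factors and were then kept in iCD1 reprogramming medium, and the treatment label is "none", so no BMP4 had been added. The labels do not spell out OB or ODR, and they do not say whether replicates were separate infections, so the p-values reflect library-to-library variation that could be purely technical. The series as a whole concerns reprogramming by Oct4 and Kdm2b and the role in it of a variant Polycomb repressive complex, PRC1.1. Poly-A RNA was sequenced, and each value below is a normalized tag count, a whole number from 0 to 18690. The totals of the 6 libraries are nearly equal, and the sources used here do not say how the authors normalized.

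Oct4, encoded by Pou5f1, is a transcription factor of the pluripotent embryo and the factor shared by many reprogramming cocktails. Kdm2b is a histone demethylase with a CXXC zinc finger that binds unmethylated CpG sites and brings PRC1.1, a ubiquitin ligase for histone H2A, to CpG-rich promoters. Reprogramming of fibroblasts is known to pass through a rise in proliferation, the loss of the mesenchymal programme and the late activation of the pluripotency network. Genes of early embryonic patterning, such as the Cdx and Hox genes, are classical targets of Polycomb complexes.

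Of 21350 genes in the table, 12673 had a value of 10 or more in at least 2 of the 6 libraries and were tested with limma on log2(value + 1). A gene could pass this filter through the libraries of a single group, so counts for gene lists describe the members that passed. For such a gene the filter favoured a single direction, also in lists where these genes are not named below. Fold changes below are OB over ODR on that log2 scale, given with the standard error (n = 3 libraries each), and a gene said to rise or fall by a number did so on the same scale. At an adjusted p below 0.05 there were 7295 called genes, which was 57.6% of those tested. OB libraries were higher for 3710 genes (29.3%) and lower for 3585 genes (28.3%), and the median log2 fold change over all tested genes was 0.03. Both shares are the background for the list counts at day 14 below. Libraries with nearly equal totals and shared high values favour a balance of higher and lower genes, so that balance is not read as a result. A log2 fold change of at least 2 was reached by 590 of the higher and 507 of the lower genes, and a change of at least 5 by 50 of the higher and 9 of the lower. OB replicate 1 lay farther from ODR than the other OB libraries: its correlations with the ODR libraries across genes were 0.764 to 0.783, against 0.829 to 0.857 for OB replicates 2 and 3. It was the OB library farthest from the ODR mean in 4644 of the 7295 called genes (63.7%). Without OB replicate 1 there were 6437 called genes.

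Kdm2b (chr5:122870665-122989823, minus strand, mm10) had 4626, 6246 and 4220 normalized tags in OB libraries, against 310, 236 and 240 in ODR libraries. Its log2 fold change was 4.25 ± 0.19 (SE, n = 3 each, adjusted p = 0.000104), and every OB library was above every ODR library. The table does not separate transcripts of an introduced copy from those of the cell's own gene. Kdm2a, the closest relative of Kdm2b, had 1000, 950 and 806 tags in OB libraries and 1122, 856 and 1054 in ODR libraries (log2 fold change −0.13 ± 0.15, adjusted p = 0.481), and its groups overlapped. Pou5f1 was at the table's highest value of 18690 in OB replicates 2 and 3 and in all ODR libraries, and at 7086 in OB replicate 1, so no ratio between the groups is given.

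Sall4, a zinc finger factor of the pluripotent embryo, had 346, 330 and 292 tags in OB libraries and 3, 1 and 4 in ODR libraries (log2 fold change 6.56 ± 0.34, adjusted p = 0.000131). Lin28a (chr4:134003330-134018841, minus strand), which encodes an RNA-binding protein that blocks maturation of let-7 microRNAs, had 632, 656 and 742 tags in OB libraries and was listed at 0 in every ODR library. Cdx2 (chr5:147300805-147307270, minus strand), a homeobox factor of the caudal embryo and of trophectoderm, had 170, 206 and 186 tags in OB libraries and was likewise listed at 0 in every ODR library. No fold change is given for a gene listed at 0 in a group, because its fitted value depends on the pseudocount. In all, 30 genes were at 10 or more in every OB library and listed at 0 in every ODR library, and 3 genes showed the opposite pattern.

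The promoters of 3 genes listed at 0 in ODR and of 2 genes with low values in OB are printed here because Kdm2b is known to bind CpG sites. Each runs 5′ to 3′ on the gene's strand from 250 bases before to 50 bases after the start in RefSeq (GRCm38.p6), with CG pairs in capitals. The Lin28a promoter (chr4:134018767-134019066, minus strand) holds 10 CG pairs, that of Nkx1-2 (chr7:132599588-132599887, minus strand) 21 and that of Cdx2 (chr5:147307200-147307499, minus strand) 18. The Ucn3 promoter (chr13:3945300-3945599, minus strand) holds 1 and that of Gpr65 (chr12:98268385-98268684, plus strand) 3.
Lin28a: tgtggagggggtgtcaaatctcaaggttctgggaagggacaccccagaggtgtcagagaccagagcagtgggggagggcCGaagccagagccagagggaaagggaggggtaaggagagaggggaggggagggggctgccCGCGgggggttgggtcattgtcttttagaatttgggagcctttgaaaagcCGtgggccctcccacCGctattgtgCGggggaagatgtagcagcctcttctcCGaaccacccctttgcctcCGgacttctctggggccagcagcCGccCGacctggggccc
Nkx1-2: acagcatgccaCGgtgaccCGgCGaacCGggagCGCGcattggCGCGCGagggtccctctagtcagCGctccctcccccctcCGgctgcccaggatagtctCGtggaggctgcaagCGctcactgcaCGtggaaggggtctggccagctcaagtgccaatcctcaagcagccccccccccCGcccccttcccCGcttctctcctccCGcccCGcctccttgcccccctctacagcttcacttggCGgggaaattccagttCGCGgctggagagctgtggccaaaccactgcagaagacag
Cdx2: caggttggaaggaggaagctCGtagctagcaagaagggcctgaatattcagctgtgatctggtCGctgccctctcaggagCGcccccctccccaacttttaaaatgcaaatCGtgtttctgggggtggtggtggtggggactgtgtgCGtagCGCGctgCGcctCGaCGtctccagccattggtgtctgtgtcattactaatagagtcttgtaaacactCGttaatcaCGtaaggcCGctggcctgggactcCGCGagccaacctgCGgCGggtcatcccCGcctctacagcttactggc
Ucn3: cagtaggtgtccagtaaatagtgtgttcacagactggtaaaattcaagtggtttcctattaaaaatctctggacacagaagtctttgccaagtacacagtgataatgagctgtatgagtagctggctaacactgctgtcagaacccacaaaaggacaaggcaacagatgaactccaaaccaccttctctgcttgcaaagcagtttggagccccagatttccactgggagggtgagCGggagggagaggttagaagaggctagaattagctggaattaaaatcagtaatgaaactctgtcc
Gpr65: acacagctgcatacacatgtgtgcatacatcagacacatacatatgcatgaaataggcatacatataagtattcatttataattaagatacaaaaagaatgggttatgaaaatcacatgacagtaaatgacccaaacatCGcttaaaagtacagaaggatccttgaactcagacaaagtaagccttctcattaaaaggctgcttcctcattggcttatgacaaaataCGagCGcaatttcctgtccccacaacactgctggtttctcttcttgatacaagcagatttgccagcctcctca

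The CG pair is its own reverse complement, so a count on either strand is the same. At least 10 CG pairs are held by 43.5% of the 32851 RefSeq promoters of the same length, at least 21 by 24.8%, at least 18 by 29.7%, at least 3 by 76.7% and at least 1 by 94.6%. For a gene with several RefSeq promoters, the one with the most CG pairs was used throughout. The percentages instead count every promoter singly (median 7 CG pairs). They therefore do not rank a gene against the richest promoters of other genes. Of the 30 genes listed at 0 in ODR, 23 had a promoter in the table, with 2 to 53 CG pairs and a median of 13. Of the 10 genes with the largest fall in OB among non-overlapping genes with a mean of 100 or more in either group, 9 had one, with 1 to 39 CG pairs and a median of 6.0. Ucn3 and Gpr65, printed above, lay below that median. Fam110c (16), Acp5 (17), Rspo1 (29) and Arhgef16 (39) lay above it. Across all called genes the medians were close, at 23 for the 2882 matched genes that rose in OB and 21 for the 2756 that fell, against 22 for the 4163 that were not called. The promoters of Lin28a, Nkx1-2 and Cdx2 (10, 21 and 18) and the median of 13 lay below the medians of 23 and 22. They were thus not rich in CG pairs beside other tested genes, and a link of CG pairs to Kdm2b was not tested.

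**Figure D1:**
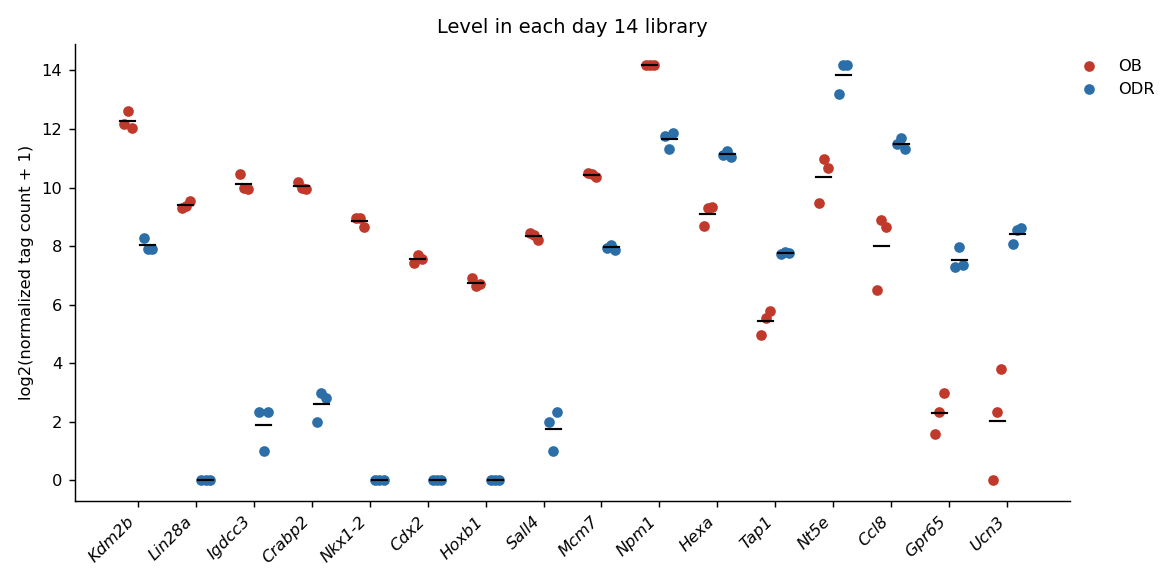
Level of 16 named genes in each of the 6 day 14 libraries, as log2(normalized tag count + 1), with OB in red left of ODR in blue and a black bar at each group's mean. Lin28a, Nkx1-2, Cdx2 and Hoxb1 lie at 0 in all ODR libraries, Npm1 lies at the highest value in all OB libraries, and OB replicate 1 is the leftmost red point of each gene.

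The genes known to work with Lin28a were described as a list of 23, all of which passed the filter. Of these, 20 rose in OB (29.3% of all tested genes did) and 2 fell, with a median log2 fold change of 1.49. Among those that rose, Lin28a, Igdcc3, Trim71, Mycn and Mycl would not have passed on ODR values alone. Igdcc3, known as a let-7 target in human cells, had 1408, 1016 and 994 tags in OB libraries and 4, 1 and 4 in ODR libraries (log2 fold change 8.26 ± 0.39, adjusted p = 0.000104). Trim71, the mammalian counterpart of the worm heterochronic gene lin-41, had 278, 206 and 198 tags in OB libraries and 2, 3 and 7 in ODR libraries (log2 fold change 5.62 ± 0.37). Mycn, a growth-promoting transcription factor, had 247, 134 and 118 in OB libraries and 3, 2 and 6 in ODR libraries. None of the 3 genes overlapped between the groups, as was the case for 66.0% of all tested genes. The genes that fell were Zcchc6 (log2 fold change −0.77 ± 0.12), a terminal uridylyltransferase, and Igf1r (log2 fold change −0.97 ± 0.13), the receptor for insulin-like growth factors. Nras, long known as a let-7 target, had 589, 634 and 577 tags in OB libraries and 594, 578 and 572 in ODR libraries, with overlapping groups.

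Factors of the caudal embryo and of axial progenitors formed a list of 33 genes, of which 20 passed the filter: 17 rose in OB and 2 fell. The filter itself could be passed through the OB libraries alone, so these counts describe the genes that passed and not the list. Nkx1-2, a homeobox gene of the tail-end epiblast, had 496, 502 and 402 tags in OB libraries and was listed at 0 in every ODR library. Cdx4 had 112, 114 and 122 tags in OB libraries and Wnt8a 76, 94 and 38, and both were listed at 0 in every ODR library. Sp5, a Wnt-induced zinc finger factor, had 232, 228 and 150 tags in OB libraries and 0, 0 and 2 in ODR libraries (log2 fold change 7.12 ± 0.46, adjusted p = 0.000261). Sox2, shared by neural, axial and pluripotent progenitors, had 302, 274 and 292 in OB libraries and 6, 10 and 8 in ODR libraries (log2 fold change 5.03 ± 0.18, adjusted p = 5.04e-05). T, the mesoderm factor Brachyury, was chosen after its values were seen: it had 59, 43 and 52 tags in OB libraries and was listed at 0 in every ODR library. The pair that fell were Epha5 (log2 fold change −1.02 ± 0.14) and Fst (log2 fold change −0.96 ± 0.21), a secreted antagonist of activin.

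Hox genes stand in 4 clusters, and their order along the chromosome follows their order of use along the body, with group 1 most anterior and group 13 most posterior. In HoxA, 10 of 11 genes rose in OB and 1 fell; in HoxB, all 9 tested genes rose. In HoxC 5 of 7 rose, and in HoxD 4 of 9 rose and 1 fell (2 fell without ODR replicate 3). Hoxb1 had 120, 98 and 104 tags in OB libraries and Hoxd1 had 9, 23 and 24, and both were listed at 0 in all ODR libraries. Among group 9 genes, Hoxa9 stood at 734, 640 and 482 tags in OB libraries and 87, 62 and 40 in ODR libraries (log2 fold change 3.32 ± 0.31), with Hoxb9 at 3.10 ± 0.41 and Hoxd9 at 2.63 ± 0.19 on the same scale. Hoxc10 had 575, 388 and 402 tags in OB libraries and 77, 56 and 62 in ODR libraries.

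Only Hoxd13 and Hoxa13 were called with the opposite sign. Hoxd13 had 15, 29 and 26 tags in OB libraries and 204, 179 and 102 in ODR libraries (log2 fold change −2.73 ± 0.34, adjusted p = 0.0013). Hoxa13 had 2, 5 and 2 in OB libraries and 30, 28 and 11 in ODR libraries (log2 fold change −2.55 ± 0.45, adjusted p = 0.00417). Both are genes of the distal limb and the hindmost trunk, and neither overlapped between the groups. Hoxd11 (log2 fold change −0.61 ± 0.32) and Hoxd12 (log2 fold change −0.55) also had negative values, with overlapping libraries, and were not called. Hoxc11, Hoxc6, Hoxd10 and Hoxd8 had positive values of 0.39 to 0.93 and were not called. Hoxa4, Hoxa10 and Hoxc8 were called, but the call was lost without ODR replicate 2 and in other alternatives (adjusted p of Hoxa10 0.127 without OB replicate 1).

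**Figure D2:**
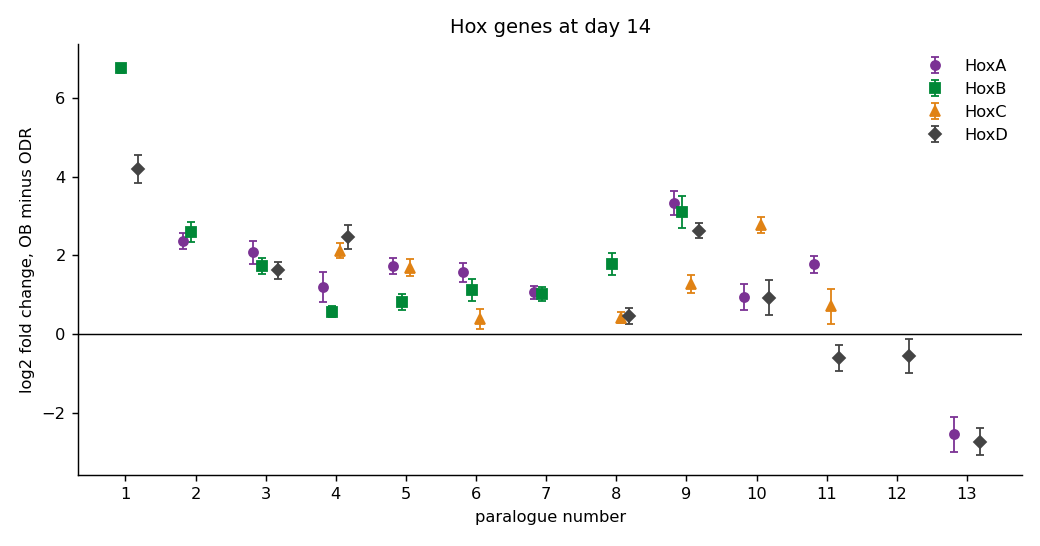
Log2 fold change (OB minus ODR at day 14) of tested Hox genes by paralogue number, 1 gene left out, with the standard error as bars and symbols for the 4 clusters. Hoxb1 and Hoxd1 lie at 6.75 and 4.18, above the other genes drawn, and Hoxa13 and Hoxd13 lie lowest; Hoxb1 and Hoxd1 were listed at 0 in ODR, so their position depends on the pseudocount.

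Of 40 Wnt pathway genes 31 passed the filter, and 20 rose and 5 fell (29.3% and 28.3% of all tested genes did). Wnt4, Wnt8a, Wnt16, Sp5, Dkk1 and Fzd10, which rose, would not have passed on ODR values alone. Wnt9a, which fell, would not have passed on OB values alone. These counts therefore describe the genes that passed and not the list. The receptor gene Fzd10 had 820, 960 and 776 tags in OB libraries and 4 in each ODR library (log2 fold change 7.41 ± 0.12, adjusted p = 1.23e-06). The secreted inhibitor Dkk1 had 63, 21 and 16 in OB libraries and was listed at 0 in ODR libraries. Other secreted inhibitors were divided. Notum rose by 3.19 ± 0.48, Frzb by 2.41 ± 0.34, Sfrp2 by 2.11 ± 0.25 and Wif1 by 1.98 ± 0.46 on the log2 scale. Dkk3 had 168, 316 and 311 tags in OB libraries and 596, 578 and 516 in ODR libraries (log2 fold change −1.14 ± 0.26, adjusted p = 0.0111), and Sfrp1 fell by 1.04 on the log2 scale. Rspo1, a secreted enhancer of Wnt signals, had 3, 34 and 46 tags in OB libraries and 734, 738 and 732 in ODR libraries (log2 fold change −5.29 ± 0.90, adjusted p = 0.00361). OB replicate 1 was the lowest of the OB libraries for Dkk3, Sfrp1 and Rspo1.

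Notch pathway genes that passed the filter numbered 18 of 23, with 12 higher and 3 lower in OB (29.3% and 28.3% of all tested genes were). Of the higher genes, Notch4, Jag2, Hes1, Hey2, Lfng, Mfng and Nrarp would not have passed on ODR values alone. These counts therefore describe the genes that passed and not the list. Nrarp, a feedback target of Notch, had 84, 96 and 59 tags in OB libraries and 2, 0 and 0 in ODR libraries (log2 fold change 5.78 ± 0.46). Hes1, the best known Notch target, had 155, 73 and 79 in OB libraries and 9, 8 and 15 in ODR libraries (log2 fold change 3.11 ± 0.35, adjusted p = 0.000952). The glycosyltransferases Mfng (log2 fold change 3.88 ± 0.32) and Lfng (log2 fold change 3.20 ± 0.31), which modify Notch receptors, also rose. Notch2 had 434, 460 and 423 tags in OB libraries and 452, 417 and 510 in ODR libraries, and Rbpj, the DNA-binding partner of Notch, 629, 654 and 612 in OB libraries and 530, 548 and 656 in ODR libraries. Both overlapped between the groups and neither was called.

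In the retinoic acid pathway 19 of 22 genes passed, and 11 rose and 1 fell. That fall was not called when OB replicate 1, OB replicate 2, OB replicate 3, ODR replicate 2 or ODR replicate 3 was left out. Of the genes that rose, Crabp2, Stra6, Cyp26a1 and Rbp4 would not have passed on ODR values alone. The count of 11 therefore describes genes that passed and not the list. Crabp2, which carries retinoic acid to its nuclear receptors, had 1170, 1000 and 988 tags in OB libraries and 3, 7 and 6 in ODR libraries (log2 fold change 7.43 ± 0.27, adjusted p = 5.18e-05). Stra6, the membrane receptor for retinol uptake, had 722, 734 and 450 in OB libraries and 6, 7 and 4 in ODR libraries (log2 fold change 6.57 ± 0.26, adjusted p = 7.09e-05). Aldh1a2, which makes retinoic acid, had 67, 86 and 68 in OB libraries and 20, 15 and 17 in ODR libraries. The retinoic acid receptor gene Rarg had 452, 404 and 440 tags in OB libraries and 518, 428 and 476 in ODR libraries and was not called (log2 fold change −0.13 ± 0.12). Of the FGF and ERK feedback genes 19 of 28 passed, with 7 higher and 3 lower (1 lower without ODR replicate 2). The feedback inhibitor Il17rd had 996, 935 and 929 tags in OB libraries and 76, 56 and 72 in ODR libraries (log2 fold change 3.80 ± 0.14).

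BMP pathway genes that passed numbered 24 of 31, of which 10 rose and 7 fell. The falls were near the share of 28.3% over all tested genes, of which 29.3% rose. BMP4 had been added to neither group. The list was mixed, as Msx1 rose by 2.66 ± 0.42 and Hey1 fell by 0.90 ± 0.15 on the log2 scale, and Msx2 was not called. Id1, Id2 and Id3, which encode inhibitors of basic helix-loop-helix factors and are direct BMP targets, rose by 2.79 ± 0.24, 3.67 ± 0.33 and 2.70 ± 0.24 on the log2 scale. Id2 had 1001, 617 and 548 tags in OB libraries and 46, 42 and 81 in ODR libraries. Grem1, a secreted BMP antagonist, had 429, 1117 and 1244 in OB libraries and 4222, 5084 and 4628 in ODR libraries (log2 fold change −2.46 ± 0.41, adjusted p = 0.00323). For both genes OB replicate 1 lay farthest from ODR, and without it the groups still did not overlap. Among TGF-beta genes 9 of 27 rose and 9 fell, near the shares of 29.3% and 28.3% over all tested genes. The receptor genes Acvr2b (log2 fold change 2.39 ± 0.34) and Tgfbr1 (log2 fold change 0.98 ± 0.13) were among those that rose, and among those that fell were the receptor gene Tgfbr2 (log2 fold change −1.63 ± 0.19) and the ligand gene Tgfb1 (log2 fold change −1.67 ± 0.16). Acvr2b and Gdf3, which rose, would not have passed on ODR values alone, nor Fstl3, which fell, on OB values alone.

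Cell growth and division genes were higher nearly throughout. All 42 tested mitosis genes and 45 of 46 DNA replication genes rose in OB, with median log2 fold changes of 1.85 and 1.63. Mcm7, a subunit of the replicative helicase, had 1431, 1408 and 1310 tags in OB libraries and 246, 264 and 232 in ODR libraries (log2 fold change 2.48 ± 0.11, adjusted p = 9.02e-05). Bub1b, a spindle checkpoint kinase, had 845, 809 and 712 in OB libraries and 126, 96 and 116 in ODR libraries (log2 fold change 2.80 ± 0.14). Gins3 was the replication gene not called, with 54, 68 and 148 tags in OB libraries and 46, 56 and 76 in ODR libraries.

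Ribosome biogenesis factors rose with them: 39 of 41 were higher in OB and none was lower, with a median log2 fold change of 1.11. Npm1, a nucleolar chaperone, stood at the highest value of 18690 in every OB library and at 3500, 2545 and 3706 tags in ODR libraries, with a log2 fold change of 2.54 on this scale. Dkc1, the pseudouridine synthase of ribosomal RNA and a telomerase subunit, had 571, 471 and 518 tags in OB libraries and 112, 67 and 107 in ODR libraries (log2 fold change 2.47 ± 0.22, adjusted p = 0.000497). Gnl3, a nucleolar GTPase, rose by 1.77 ± 0.20 and Rrp1b by 1.99 ± 0.17. Noc3l (log2 fold change 0.34 ± 0.14) and Nop10 (log2 fold change 0.18 ± 0.14) were not called. Myc, a known inducer of ribosome biogenesis, had 234, 150 and 146 tags in OB libraries and 79, 54 and 54 in ODR libraries.

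Serine, glycine and folate-linked carbon metabolism moved the same way, with 19 of 25 genes that passed higher and none lower (1 lower without OB replicate 3). Gldc, the glycine decarboxylase, had 376, 383 and 400 tags in OB libraries and 16, 11 and 26 in ODR libraries (log2 fold change 4.45 ± 0.29, adjusted p = 0.000256). Amt, a further component of the glycine cleavage system, had 110, 89 and 101 in OB libraries and 15, 12 and 14 in ODR libraries (log2 fold change 2.78 ± 0.14). The mitochondrial folate enzyme Mthfd1l rose by 2.48 ± 0.21 and Psat1, of serine synthesis, by 2.04 ± 0.15. Slc1a4, with 396, 379 and 360 tags in OB libraries and 293, 358 and 352 in ODR libraries, was not called.

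Nuclear genes of oxidative phosphorylation moved less, with 19 of 59 higher, which is near the background of 29.3%, and 5 lower. The higher count was 11 without OB replicate 2, 10 without OB replicate 3 and 12 without ODR replicate 2, and the lower count was 2 without OB replicate 1, ODR replicate 1 or ODR replicate 3 and 3 without OB replicate 2; the highest value on the list was 0.87 on the log2 scale. Among glycolysis and hypoxia genes 24 of 35 rose and 4 fell. The glucose transporter gene Slc2a3 had 1850, 1749 and 1556 tags in OB libraries and 52, 55 and 92 in ODR libraries (log2 fold change 4.72 ± 0.23), and the lactate transporter gene Slc16a3 rose by 5.0 ± 0.37. Eno2, the neuronal form of enolase, had 81, 88 and 64 in OB libraries and 253, 278 and 282 in ODR libraries (log2 fold change −1.80 ± 0.15).

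Lysosome genes were lower almost without exception. Of 43 that passed the filter, 40 fell in OB (28.3% of all tested genes did), none rose, and the median log2 fold change was −1.30. Hexa, the alpha subunit of beta-hexosaminidase, had 415, 634 and 640 tags in OB libraries and 2219, 2415 and 2121 in ODR libraries (log2 fold change −2.02 ± 0.19, adjusted p = 0.000611). Acp5, an acid phosphatase typical of osteoclasts, had 5, 5 and 8 in OB libraries and 198, 288 and 196 in ODR libraries (log2 fold change −5.03 ± 0.23, adjusted p = 0.000104). The proton pump subunit Atp6v0d2, also an osteoclast gene, had 6, 19 and 13 in OB libraries and 281, 256 and 188 in ODR libraries (log2 fold change −4.26 ± 0.39). Tfeb, the master regulator of lysosome genes, had 80, 59 and 43 tags in OB libraries and 90, 88 and 66 in ODR libraries (log2 fold change −0.45 ± 0.25, adjusted p = 0.172). The other members not called were Arsb and Ctsh.

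Antigen presentation by MHC class I followed the same direction, with 18 of 21 genes lower in OB and none higher. Nlrc5, the transactivator of class I genes, had 13, 16 and 12 tags in OB libraries and 144, 132 and 108 in ODR libraries (log2 fold change −3.14 ± 0.16, adjusted p = 0.000131). The peptide transporter genes Tap1 and Tap2 had log2 fold changes of −2.33 ± 0.22 and −2.87 ± 0.26, and Psmb8, an immunoproteasome subunit, fell by 2.91 ± 0.24. Tap1 had 30, 46 and 54 tags in OB libraries and 210, 222 and 215 in ODR libraries. Calr and Pdia3, general chaperones of the endoplasmic reticulum, overlapped between the groups at 3328 to 4626 tags and were not called, and H2-Q7, from a family of near-identical class I genes whose reads may be shared, was not called either.

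Of 31 interferon response genes 26 fell and 1 rose. Bst2, an antiviral membrane tether, had 51, 101 and 87 tags in OB libraries and 428, 510 and 622 in ODR libraries (log2 fold change −2.73 ± 0.28, adjusted p = 0.000739). Ifitm1 was the exception, at 238, 321 and 291 tags in OB libraries and 10 in each ODR library (log2 fold change 4.68 ± 0.14, adjusted p = 2.25e-05), while its neighbours in the family Ifitm2 and Ifitm3 were not called. Of 17 complement and coagulation genes that passed, 10 fell and 1 rose. C3, the central complement protein, had 2, 2 and 4 tags in OB libraries and 35, 60 and 34 in ODR libraries (log2 fold change −3.58 ± 0.30), and Procr, the endothelial protein C receptor, had 4, 8 and 12 in OB libraries and 102, 126 and 104 in ODR libraries. Neither C3 nor Procr would have passed on OB values alone, so the complement counts describe genes that passed.

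Secreted cytokines and chemokines passed the filter in 16 of 31 cases, and 10 fell and 1 rose (none rose without OB replicate 2, OB replicate 3 or ODR replicate 1, and 2 without ODR replicate 2). The chemokine gene Ccl8 had 90, 470 and 400 tags in OB libraries and 2888, 3324 and 2540 in ODR libraries (log2 fold change −3.49 ± 0.62, adjusted p = 0.00412). Tnfrsf11b, the decoy receptor osteoprotegerin, had 300, 448 and 486 in OB libraries and 2008, 1847 and 2008 in ODR libraries (log2 fold change −2.27 ± 0.20). OB replicate 1 was lowest in both. Of 24 p53 targets 13 fell and 2 rose; Fas had 15, 51 and 50 tags in OB libraries and 176, 190 and 192 in ODR libraries, while Pmaip1, which encodes the pro-apoptotic protein Noxa, had 251, 267 and 240 in OB libraries and 8, 8 and 13 in ODR libraries (log2 fold change 4.6 ± 0.20, adjusted p = 8.69e-05).

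**Figure D3:**
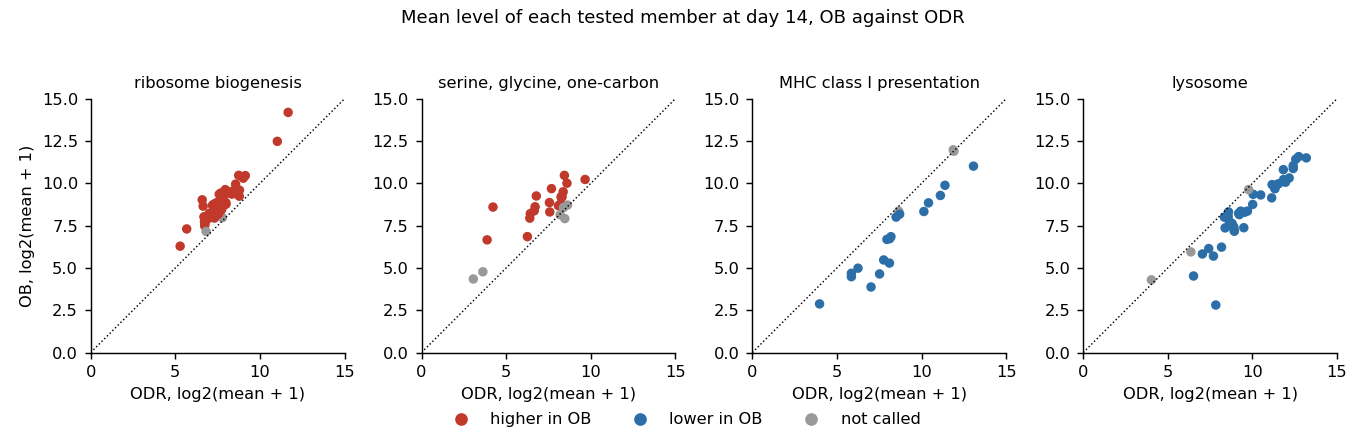
Mean level of each tested member of 4 gene lists, as log2(mean normalized tag count + 1), with OB on the vertical axis and ODR on the horizontal axis; the dotted line marks equal levels. In the left panels 39 of 41 ribosome biogenesis genes and 19 of 25 serine, glycine and folate-linked genes were called above the line, and in the right panels 18 of 21 class I presentation genes and 40 of 43 lysosome genes were called below it.

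Collagen chains split evenly, with 9 of 30 higher and 9 lower, shares near the background. Col2a1, the cartilage collagen that is also found in the notochord, had 330, 388 and 352 tags in OB libraries and 0, 0 and 2 in ODR libraries (log2 fold change 7.95 ± 0.44, adjusted p = 0.000147), and Col4a6 of basement membranes rose by 3.22 ± 0.22. Col8a1 had 410, 1214 and 1571 tags in OB libraries and 18690, 7086 and 7086 in ODR libraries; its log2 fold change was −3.41, with 1 ODR library at the highest value. Matrix crosslinking and remodelling genes fell in 16 of 29 cases and rose in 7. Lox, which crosslinks collagen, had 120, 98 and 210 tags in OB libraries and 724, 536 and 674 in ODR libraries (log2 fold change −2.23 ± 0.30), and the protease inhibitor gene Timp1 fell by 2.18 ± 0.27.

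Among matrix glycoproteins 13 of 34 fell and 6 rose. Thbs1, which encodes thrombospondin 1, had 822, 1618 and 2219 tags in OB libraries and 9306, 18690 and 18690 in ODR libraries. The log2 fold change was −3.37, with 2 ODR libraries at the highest value. Postn, encoding periostin, had 1974, 5091 and 5626 in OB libraries and 18690 in every ODR library (log2 fold change −2.28). Lama5, a laminin of epithelial basement membranes, had 478, 460 and 306 in OB libraries and 19, 42 and 57 in ODR libraries (log2 fold change 3.47 ± 0.41, adjusted p = 0.00108). Contractile and smooth muscle genes fell in 5 of 21 cases, below the background of 28.3%, and none rose; without ODR replicate 2, 3 fell.

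Of the 18 genes of the insulin-like growth factor axis, 5 rose and 8 fell, with a median log2 fold change of −0.33. Igf2, an imprinted fetal growth factor, had 5077, 3993 and 4217 tags in OB libraries and 518, 431 and 816 in ODR libraries (log2 fold change 2.96 ± 0.25, adjusted p = 0.000449). Its binding partner Igfbp2 had 1174, 1098 and 865 in OB libraries and 38, 28 and 57 in ODR libraries (log2 fold change 4.69 ± 0.27), and Igfbp4 rose by 2.48 ± 0.24. In contrast, Igfbp5 fell by 1.07 ± 0.20, and the protease gene Pappa had 9, 14 and 33 tags in OB libraries and 85, 90 and 160 in ODR libraries. Of the imprinted genes 27 of 31 passed, and 15 rose and 4 fell. Peg3 had 4217, 2886 and 2720 tags in OB libraries and 204, 260 and 236 in ODR libraries (log2 fold change 3.78 ± 0.20, adjusted p = 0.000137). Dlk1 had 595, 203 and 175 in OB libraries and 16, 8 and 134 in ODR libraries; its call (log2 fold change 3.34 ± 1.05, adjusted p = 0.0341) was lost when the replicate number was a block (adjusted p = 0.0546).

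Of the 10 genes of the PRC1.1 list 6 were higher in OB and none was lower. Beside Kdm2b itself, Bcor, a scaffold subunit, had 710, 662 and 499 tags in OB libraries and 268, 236 and 206 in ODR libraries (log2 fold change 1.39 ± 0.18, adjusted p = 0.0014). Skp1a rose by 0.84 ± 0.13 and the deubiquitinase gene Usp7 by 0.70 ± 0.11. Rybp (log2 fold change 0.14 ± 0.15), Ring1 (log2 fold change 0.13 ± 0.18) and Bcorl1 (log2 fold change 0.17 ± 0.39) were not called, and their groups overlapped.

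In the PRC2 complex, which methylates lysine 27 of histone H3, 8 of 12 genes rose and 3 fell. The catalytic subunit gene Ezh2 had 856, 868 and 754 tags in OB libraries and 162, 185 and 182 in ODR libraries (log2 fold change 2.22 ± 0.12, adjusted p = 0.000135), and the accessory subunit gene Jarid2 had 1134, 938 and 759 in OB libraries and 136, 152 and 126 in ODR libraries (log2 fold change 2.75 ± 0.18). The alternative catalytic subunit gene Ezh1 fell by 0.63, and its call was lost without ODR replicate 1 (adjusted p = 0.0511). The gene listed as E130012A19Rik, an older symbol of the PRC2 partner Epop, was chosen after its values were seen: it had 335, 274 and 260 tags in OB libraries and 6, 13 and 8 in ODR libraries (log2 fold change 4.91 ± 0.27). The Polycomb-like subunit genes Phf1 and Phf19 also fell: Phf19 had 3 tags in each OB library and 41, 44 and 25 in ODR libraries (log2 fold change −3.19 ± 0.22, adjusted p = 0.000274). In canonical PRC1, 3 of 12 rose and 4 fell, near the shares of 29.3% and 28.3% over all tested genes. Cbx2 had 472, 345 and 364 tags in OB libraries and 65, 42 and 30 in ODR libraries (log2 fold change 3.14 ± 0.29), while Cbx6 fell by 1.09 ± 0.11 and Bmi1 by 0.59 ± 0.14. Among DNA methylation genes, the de novo methyltransferase gene Dnmt3b had 168, 114 and 116 in OB libraries and 12, 7 and 12 in ODR libraries (log2 fold change 3.57 ± 0.25), and the demethylase genes ran in opposite directions, with Tet1 at 2.48 ± 0.32 and Tet3 at −0.67 ± 0.16.

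**Figure D4:**
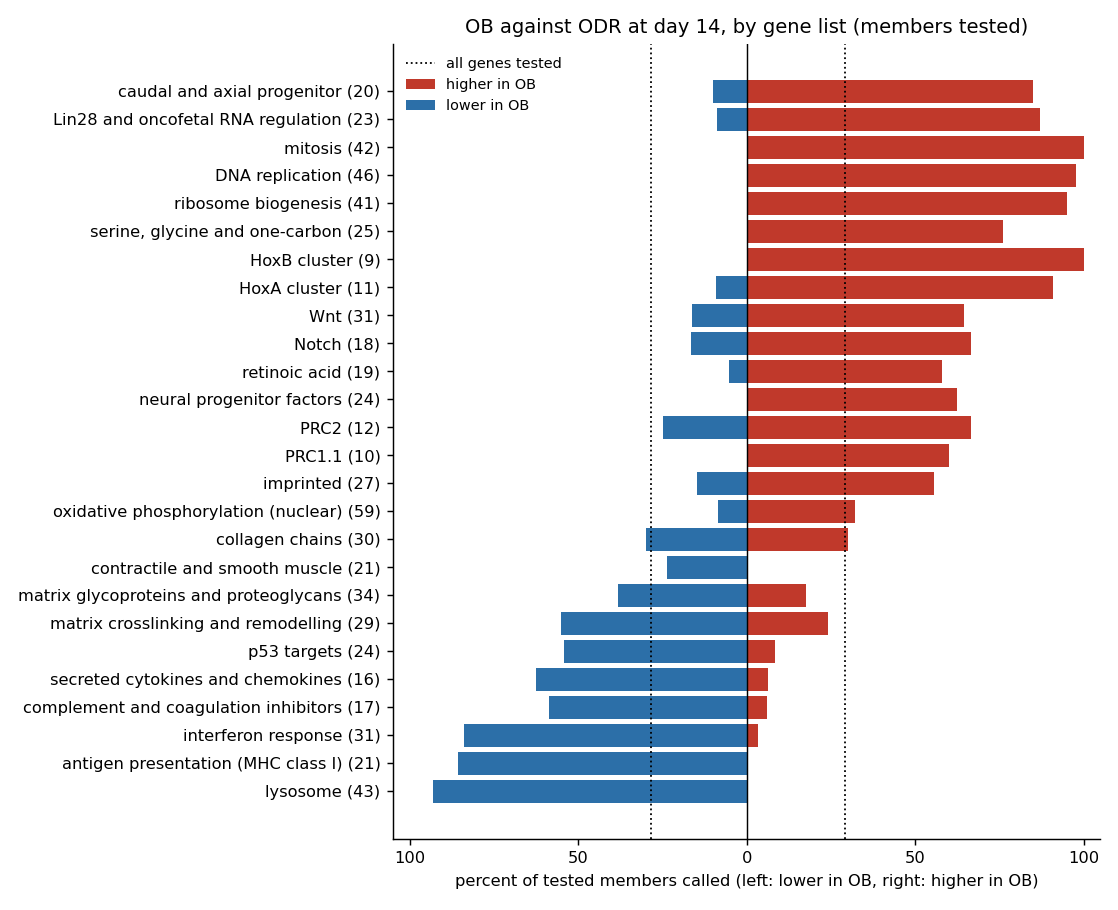
Share of tested members of 26 gene lists that was called at day 14, drawn to the right for genes higher in OB and to the left for genes lower in OB; dotted lines mark the shares over all tested genes, 29.3% and 28.3%, and the number of tested members stands in brackets. Mitosis and HoxB reach 100 percent to the right, and of the lists drawn, which hold no cell type markers, lysosome and class I presentation genes lie farthest to the left.

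Pluripotency genes other than those above stayed at low values in both groups. Of 33 on the list, 16 passed the filter, 8 of which rose and 3 fell (1 without ODR replicate 2 or 3). Of the genes that rose, Sox2, Gdf3, Nr5a2, Sall4 and Eras would not have passed on ODR values alone. Lefty1 and Dnmt3l, which fell, would not have passed on OB values alone. Both counts therefore describe the genes that passed and not the list. None of 6 defining markers of embryonic stem cells passed: Nanog had 6, 4 and 5 tags in OB libraries and 0, 2 and 1 in ODR libraries, and the summed value of the 6 markers was 9 to 26 tags in OB libraries and 2 to 5 in ODR libraries. Sall1, a relative of Sall4, had 452, 425 and 407 tags in OB libraries and 56, 48 and 27 in ODR libraries (log2 fold change 3.33). Of 38 epithelial genes 14 passed, and 8 rose and none fell (1 fell without ODR replicate 3). Cdh1, Cdh3, Epcam, Krt8, Krt18 and Spint1, 6 of the 8, passed the filter through the OB libraries alone, so their count describes genes that passed and not the list. Cdh1, encoding E-cadherin, had 66, 34 and 12 tags in OB libraries and was listed at 0 in ODR libraries, whereas Cdh2, encoding N-cadherin, had 1776, 1690 and 1348 in OB libraries and 546, 527 and 624 in ODR libraries (log2 fold change 1.5 ± 0.15).

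Neural and mesodermal factors were mixed. Of 24 neural progenitor genes that passed from a list of 36, 15 rose and none fell; Gbx2, a hindbrain factor, had 130, 113 and 109 tags in OB libraries and was listed at 0 in ODR libraries. The neural factor gene Sox1 had 330, 542 and 352 in OB libraries and 575, 584 and 388 in ODR libraries and was not called (log2 fold change −0.35). Among mesoderm genes 3 of 16 that passed rose and 5 fell; 3 fell without ODR replicate 2 and 5 rose without ODR replicate 3. Meox1, of the somites, had 164, 132 and 71 tags in OB libraries and 0, 2 and 1 in ODR libraries (log2 fold change 6.0 ± 0.48), and Osr1, of lateral mesoderm, had 45, 157 and 158 in OB libraries and 698, 654 and 566 in ODR libraries (log2 fold change −2.60 ± 0.49). Gbx2 and Meox1 passed the filter through the OB libraries alone, so the counts of both lists describe genes that passed.

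Among non-overlapping genes with a mean of 100 or more in either group, the 10 largest falls in OB were in Ucn3, Itgb2l, Spns2, Rspo1, Gpr65, Acp5, Arhgef16, Fam110c, Atp6v0d2 and Ptgir. Ucn3 (chr13:3940688-3945349, minus strand), a peptide hormone of the urocortin family, had 0, 4 and 13 tags in OB libraries and 268, 376 and 388 in ODR libraries (log2 fold change −6.37 ± 0.90, adjusted p = 0.00192). Itgb2l, an integrin beta subunit gene, had 0, 1 and 7 in OB libraries and 179, 191 and 175 in ODR libraries. Spns2, the exporter of sphingosine-1-phosphate, had 1, 6 and 6 in OB libraries and 177, 230 and 246 in ODR libraries (log2 fold change −5.55 ± 0.51). Gpr65 (chr12:98268635-98276644, plus strand), a proton-sensing receptor, had 2, 4 and 7 in OB libraries and 156, 251 and 161 in ODR libraries (log2 fold change −5.23 ± 0.38, adjusted p = 0.000314). Of these 10 genes, OB replicate 1 was the lowest OB library, or level with the lowest, in every case. Nt5e, the ecto-enzyme that makes adenosine, had 704, 2012 and 1636 tags in OB libraries and 9302, 18690 and 18690 in ODR libraries. Its log2 fold change was −3.48, with 2 ODR libraries at the highest value, and the enzymes on either side of it in the pathway, Entpd1 (log2 fold change −2.03 ± 0.13) and Ada (log2 fold change −2.28 ± 0.24), fell too. Of the 13 tested genes on its list of purine handling, 7 fell and 2 rose (28.3% and 29.3% of all tested genes did). The adenosine kinase gene Adk was among those that rose, but its call was lost when any single library was left out.

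Markers of other cell types that a culture could hold differed in level and direction. All 8 fibroblast markers passed the filter, with 3 higher and 2 lower in OB (4 lower without ODR replicate 2); their summed value was 8086 to 10633 tags in OB libraries and 10310 to 17766 in ODR libraries. Macrophage and leukocyte markers summed to 10 to 40 tags in OB libraries and 44 to 93 in ODR libraries over 9 genes, with Tyrobp, Fcer1g and Csf1r at 6 or fewer in every library, and Cd68, itself a lysosomal protein, fell by 2.09. Of 7 keratinocyte markers 5, all keratins, were listed at 0 in all 6 libraries, although Trp63 had 17, 49 and 66 tags in OB libraries and 254, 354 and 288 in ODR libraries. Dsg3, the other keratinocyte-list gene that passed, fell by 3.15 ± 0.40. Of 6 adipocyte markers 2 passed, both lower in OB (1 without ODR replicate 2), and 3 were listed at 0 in all 6 libraries; Fabp4 had 10, 8 and 10 tags in OB libraries and 61, 50 and 80 in ODR libraries (log2 fold change −2.63 ± 0.20), and the list summed to 15 to 21 tags in OB libraries and 70 to 92 in ODR libraries. The endothelial list summed to 121 to 200 tags in OB libraries and 263 to 330 in ODR libraries, with Kdr lower (log2 fold change −3.20 ± 0.49) and Cldn5 higher in OB, a call lost without ODR replicate 1 (adjusted p = 0.0507). The part of these cells in the results was not tested, and in bulk libraries fewer cells of a type and less RNA per cell cannot be told apart.

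The same contrast at day 6, with 4 OB and 2 ODR libraries, gave far fewer calls: 1740 of 13088 genes (13.3%), 970 higher (7.41%) and 770 lower (5.88%) in OB. The remaining ODR day 6 library was left out because all of its 21350 values equalled those of a library labelled as BMP4-treated. The difference between the day 14 and the day 6 contrast passed the test for 5361 genes (41.0%), more positive at day 14 in 2668 (20.4%) and more negative in 2693 (20.6%). The mitosis genes had a median log2 fold change of −0.10 at day 6 and 1.85 at day 14, and the difference was called for all 42. The DNA replication genes had medians of −0.13 at day 6 and 1.63 at day 14 (44 of 46 called), and ribosome biogenesis genes 0.07 and 1.11 (36 of 41 called).

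Lysosome genes had a median of −0.23 at day 6 and −1.30 at day 14, and 35 of 43 were more negative at day 14. For class I presentation the medians were −0.49 and −1.39 (12 of 21 called). Interferon genes were already lower at day 6, with 19 of 31 called and a median of −0.86, and 8 differed further at day 14. The HoxA genes had a median of −0.67 at day 6, when 5 of 11 were lower in OB and none was higher, and of 1.73 at day 14. Neural progenitor genes were higher at both times, with 13 of 24 called at day 6, and neuronal genes had a median of 1.11 at day 6 and 0.94 at day 14, with 13 of 27 more negative at day 14.

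**Figure D5:**
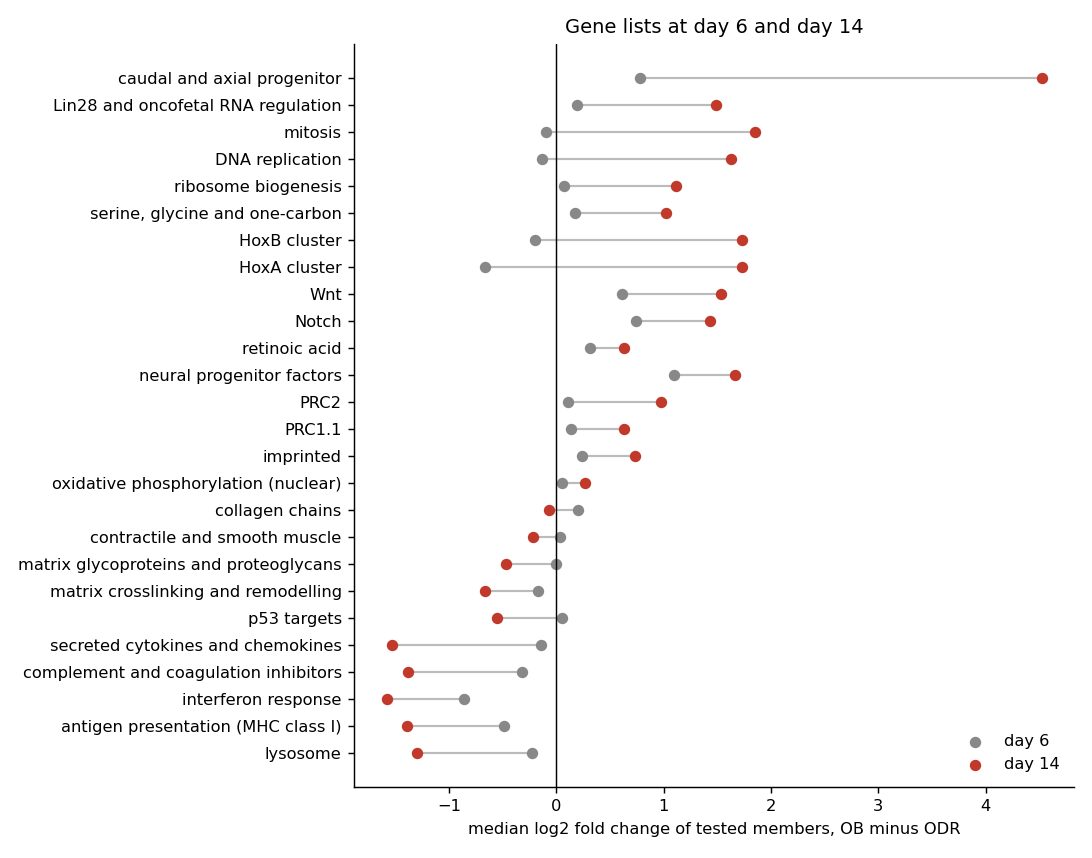
Median log2 fold change (OB minus ODR) of the tested members of each gene list at day 6 (grey) and day 14 (red), from the model of 12 libraries. The medians of most lists lie farther from 0 at day 14, and HoxA lies at −0.67 at day 6 and at 1.73 at day 14; medians of lists with genes listed at 0 depend on the pseudocount.

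Levels at earlier times were compared for the genes farthest apart at day 14. Lin28a was at 0 to 2 tags in the 4 OB day 6 libraries and Cdx2 at 0 or 1, and both were listed at 0 in the OB day 1 libraries. Sall4 had 58, 27, 55 and 32 tags in OB day 6 libraries and 0 and 5 in the ODR day 6 libraries used. Of the 30 genes listed at 0 in all ODR day 14 libraries, 2 were at 10 or more in every OB day 6 library and 5 were listed at 0 there. Of the same 30, 14 were at 10 or more in the library of embryonic stem cells and 10 were listed at 0 in it, Cdx2, Hoxb1 and T among them. Col2a1 ran differently: it had 708 and 510 tags in OB and 159 and 202 in ODR day 1 libraries, then 15 to 25 in OB and 1 and 4 in ODR day 6 libraries.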

How the data were processed

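RNA-seq values of 6 libraries (OB and ODR at day 14, 3 each) were taken from a deposited table of 21350 genes by 35 libraries. Per the labels' protocols, poly-A RNA was enriched with oligo-dT beads; the submitters' processing notes name bcl2fastq, Bowtie2 2.2.5, RSEM and mm10, without their roles. The deposited values are a normalized tag count, treated as a score: whole numbers with nearly equal library totals (4347490 to 4390250) and a common highest value of 18690, reached by 10 genes in each of the 6 libraries. The sources used here do not say how the authors normalized, the sequencing depth is unknown, and above 5000 the 6 libraries take 42 distinct values, so ratios near the top are coarse.

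Genes with 10 or more in at least 2 libraries were fitted with limma 3.58.1 in R 4.3.3 on log2(value + 1), 2-sided, with Benjamini-Hochberg adjustment over all tested genes and a threshold of 0.05. A count model was not used because the values are not counts. The day 6 contrast and its difference from day 14 came from a model of 12 libraries. Replicate numbers were checked for pairing. Same-numbered libraries deviated from their group means with correlations of 0.183, 0.110 and 0.192, and others with −0.206 to 0.006. Deviations from a group mean cancel out within the group, so positive values for some pairs force lower ones for others. These weak correlations cannot settle whether replicates were paired, which the labels do not say. The script was tested on simulated data. Gene positions are from GENCODE vM21.

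Members and gene lists were chosen with earlier results of these data known. Named genes were Kdm2b, Lin28a, Sall4, Cdx2, Pou5f1 and Kdm2a, the 10 largest changes each way among non-overlapping genes with a group mean of 100 or more, and up to 4 called genes each way (a group mean of 20 or more) and 3 not called per list, with all Hox genes; predicted genes were left out. Some genes chosen this way are not reported here. Alternatives changed the filter, pseudocount, moderation, libraries in the model, centring and replicate block, and left out each library.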

Additional observations from a re-analysis of the deposited data

Results flagged for a closer look

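Differences between the day 14 and the day 6 contrast passed the test for Kdm2b, Lin28a, Sall4 and Cdx2 and, by a rule added after the data were seen, for the largest differences among genes with a day 14 mean of 100 or more. For Kdm2b the log2 fold change (OB minus ODR) was 4.25 at day 14 and 6.20 at day 6, a difference of −1.95; all 4 OB day 6 libraries stood at the highest value of 18690. The difference was 8.50 for Lin28a and 7.80 for Cdx2, both listed at 0 in ODR day 14 libraries, so that these sizes depend on the pseudocount. For Sall4 it was 2.47 (6.56 at day 14, 4.09 at day 6, adjusted p = 0.0419); this call was lost under the replicate block (adjusted p = 0.1), without ODR day 6 replicate 2 (difference 1.18, adjusted p = 0.187) and in 9 further alternatives.

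The differences farthest above 0 beyond these were 7.60 for Mab21l2 and 7.27 for Zic4, both developmental regulators, and 7.35 for Nkx1-2. Nkx1-2 was listed at 0 in ODR day 14 libraries, so the size of its difference depends on the pseudocount. Mab21l2 averaged 207 tags in OB and 2.67 in ODR libraries at day 14, against 1.75 in OB and 6.50 in ODR libraries at day 6. The differences farthest below 0 were −4.75 for Tub, −4.23 for Thbs4, −4.22 for Reln, −4.18 for Nt5e and −4.02 for Dpp6. Thbs4, a matrix thrombospondin, averaged 285 tags in OB and 831 in ODR libraries at day 14, against 878 in OB and 166.5 in ODR libraries at day 6. Cdx2 was also picked out because a single OB day 6 library differed from the other 3, which gives a gap of 1.0 of the range; the gap is 1 tag against 0.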

How the results depend on the processing

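The counts of called genes stayed within 1.5 times of the reported ones under every alternative run. Leaving out each library in turn gave 6083 (without ODR replicate 2) to 6592 genes at day 14 and 4076 to 5290 for the difference from day 6. With the replicate number as a block, a pairing that the labels do not state, 7441 genes were called at day 14 and 4760 for the difference. Of 325 named genes that were called, 291 kept the call under all alternatives in which they were tested, 295 without each library in turn and 320 under the block; the 5 lost under the block were Cdh3, Dlk1, Mbd1, Ndufa3 and Rfng. No named gene that was called changed sign. Of the named differences from day 6, Sall4 alone lost its call, in 11 alternatives (adjusted p 0.0575 to 0.187), among them the block (0.1). List counts that moved by over 1.5 times when a library was left out included oxidative phosphorylation (10 to 21 higher, reported 19) and fibroblast markers (2 to 4 lower, reported 2). Depth is unknown, so a value of 0 carries no upper limit, and ratios of genes at 18690 are coarse.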

Other observations

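The library labelled OA day 14 replicate 1, from a further factor set, held low values of genes listed at 0 in every ODR day 14 library. Of the 30 genes, 19 had their highest value among the OA day 14 libraries in replicate 1, 9 in replicate 2 and 1 in replicate 3. Lin28a had 69 tags in it, Nkx1-2 had 64, T had 24, Cdx2 had 23, Gbx2 had 18 and Hoxb1 had 12. In OA day 14 replicates 2 and 3, Lin28a had 8 and 4 tags, Nkx1-2 had 3 and 5, and Cdx2 had 2 and 2. Replicate 2 was the highest for Cdh1, with 21, 114 and 9 tags in OA replicates 1, 2 and 3, and for Trpa1, with 0, 48 and 5. An OA library was known from earlier results of these data to go against its label. OA day 14 replicate 2 was left out of the model in an alternative, and its values are given here as labelled. The single library labelled ODB at day 9, in which Kdm2b stood at 18690, had 372 tags of Nkx1-2, 118 of Gbx2, 81 of Lin28a and 38 of Cdx2. The library labelled ODDR at day 9, with 452 tags of Kdm2b, listed all 4 at 0.

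Fezf1, a forebrain factor, was listed at 0 in all ODR day 14 libraries and had 55, 135 and 94 tags in OB day 14 libraries, but 583 to 846 tags in the 4 OB day 6 libraries. The difference between the contrasts was −2.23 (adjusted p = 0.012), and its size depends on the pseudocount because of the values of 0 in ODR.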
